A study of Mus musculus with 30 samples.

Results

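Esrrb ChIP-seq of mitotic mouse embryonic stem (ES) cells with doxycycline (DOX), which keeps an Esrrb transgene on, was set against the same measurement after 48 h of DOX withdrawal. The 6 libraries of mitotic cells were chosen by their labels from 30 in the series, and all 14559 Esrrb peaks of the deposited table were examined in them. Mitosis with DOX had 4 libraries, of which replicates 1, 3 and 4 came from EKOiE and replicate 2 from E14Tg2a, and mitosis after withdrawal had 2 libraries, both from EKOiE. EKOiE is an ES line without its own Esrrb genes that carries a DOX-inducible Esrrb transgene, and E14Tg2a is a wild-type ES line; all cells were of strain 129/Ola, grown on gelatine in serum with LIF. How the mitotic cells were collected is not stated in the labels. Interphase means asynchronous cells, with 4 DOX libraries (replicate 2 again from E14Tg2a) and 2 withdrawal libraries from EKOiE. RNA-seq covered EKOiE-Ccna-Gfp cells in 3 phases (early G1, late G1, G2), each with DOX or 24 h into withdrawal, with 3 libraries a group. Nothing in the labels tells whether replicates were grown separately, so p-values measure the spread between these samples, which may be technical.

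Esrrb is an orphan nuclear receptor of the estrogen-related receptor (ERR) family that binds DNA as a monomer at sites of the form TCAAGGTCA and works in ES cells beside Pou5f1, Sox2 and Nanog to hold the naive pluripotent state. When chromosomes condense in mitosis, many transcription factors leave the DNA, whereas some keep a part of their sites and are called mitotic bookmarking factors. A ChIP signal that is also present in cells without the factor is background, so the withdrawal libraries give, peak by peak, the level against which signal that depends on Esrrb can be read.

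The peak table holds no sequence, and promoters are the regions for which letters can be shown. Of 86 peaks centred from 250 bases before to 50 after the start of their nearest gene, 19 were called higher with DOX in mitosis (limma adjusted p under 0.05 over all peaks), a share near the 22.4% called among all peaks. Of the 6 with the largest differences among those in the RefSeq table, 3 are shown: Ajuba, which encodes a LIM-domain scaffold protein, and Cerk, a kinase of ceramide, because they hold the core of the site, and Zmynd12 as the largest difference without it. Each line gives the 250 bases before the start from RefSeq (GRCm38.p6), 5′ to 3′ on the gene's strand, with AAGGTCA or its reverse complement TGACCTT in capitals. The first lies at chr14:54577662-54577911 on the minus strand, the second at chr15:86186142-86186391 on the minus strand and the third at chr4:119422434-119422683 on the plus strand.
Ajuba: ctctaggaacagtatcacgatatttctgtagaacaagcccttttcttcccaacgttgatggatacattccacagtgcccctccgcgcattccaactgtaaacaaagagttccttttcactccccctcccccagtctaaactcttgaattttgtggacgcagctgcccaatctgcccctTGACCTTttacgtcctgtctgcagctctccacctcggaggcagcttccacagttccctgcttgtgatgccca
Cerk: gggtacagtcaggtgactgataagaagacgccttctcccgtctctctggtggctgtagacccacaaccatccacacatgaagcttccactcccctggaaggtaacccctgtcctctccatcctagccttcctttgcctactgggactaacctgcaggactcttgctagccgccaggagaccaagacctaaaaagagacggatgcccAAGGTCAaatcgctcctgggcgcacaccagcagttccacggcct
Zmynd12: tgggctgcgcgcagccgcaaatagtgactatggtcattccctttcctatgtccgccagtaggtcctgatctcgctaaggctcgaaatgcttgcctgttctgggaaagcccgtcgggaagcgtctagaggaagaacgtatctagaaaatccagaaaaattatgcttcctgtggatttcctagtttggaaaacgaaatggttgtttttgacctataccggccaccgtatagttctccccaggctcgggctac
The match in Ajuba begins 72 bases before the start on the other strand (position -72) and that in Cerk at position -44 on the gene's strand, whereas Zmynd12 holds none. AAGGTCA on either strand was found in 4 of the 11 called promoters that matched the RefSeq table (36.4%), in 6 of the 48 matched promoters whose peak was not called (12.5%) and in 5.38% of the promoters of 27026 genes. The longer TCAAGGTCA, which contains it, was in 0 of the 59 matched promoters and in 0.466% of all. These are matches of letters in small groups, and the promoter window of RefSeq may start at another transcript than the one used for the peak.
At the Ajuba peak (chr14:55196551-55196850 in mm9, build of all peak coordinates that follow), 12, 20, 13 and 12 reads fell in DOX libraries 1 to 4 and 0 and 0 in withdrawal libraries 1 and 2. Summed over the libraries and scaled by their totals, its signal was 6.96-fold higher with DOX if the 2 withdrawal libraries together are set at 3 reads. That limit leaves out the spread between libraries, and the peak was picked for its large difference. At the Cerk peak (chr15:86016601-86016900) the reads were 8, 26, 12 and 15 with DOX and 0 and 4 after withdrawal, and at the Zmynd12 peak (chr4:119095051-119095500) 15, 32, 22 and 23 with DOX and 1 and 3 after withdrawal. The DOX and withdrawal values did not overlap at any of the 3 peaks. These were picked from the called peaks, 95.9% of which did not overlap, against 47.4% of all peaks. After quantile normalization none of the 3 was called, against 13.9% of the called peaks and 3.11% of all peaks.

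The libraries differed in depth and in the share of reads that fell in peaks. Mitosis with DOX had 54.6, 67.5, 49.7 and 33.9 M reads, and mitosis after withdrawal 18.6 and 56.7 M reads. Of these reads, 1.11, 1.29, 1.14 and 1.29% lay in peaks with DOX, against 0.309 and 0.707% after withdrawal. Every DOX library was above both withdrawal libraries, with means of 1.21 ± 0.0945% (SD, n = 4) and 0.508 ± 0.281% (SD, n = 2); the exact 2-sided permutation p of 0.133 is the smallest that 15 splits allow. In interphase the share was 3.11 to 9.83% in the 4 DOX libraries and 0.303 and 0.654% in the 2 withdrawal libraries. Replicate 1 after withdrawal in mitosis had a median of 2 reads per peak and no read in 23.8% of peaks, while replicate 2 had a median of 23 reads and no read in 0.0206%. The DOX libraries had medians of 25, 46, 31 and 22 reads per peak. In the RNA-seq, 6 ES-cell markers summed to 2251 to 3052 CPM (counts scaled to the library total) with DOX and 2046 to 3007 after withdrawal, and 6 fibroblast or feeder markers to 73.0 to 102 with DOX and 73.8 to 122 after withdrawal.

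In mitosis, on the heights as deposited, Esrrb peaks stood higher with DOX than after withdrawal. A larger share was called among the peaks that the authors class as Bookmarked. That class may itself rest on the mitosis libraries, so its share is a description and no separate support. Of 14559 peaks, 3256 (22.4%) were called higher with DOX and 0 lower (limma adjusted p under 0.05; at an unadjusted p under 0.05, 5880 were higher and 0 lower). Heights are log2 RPKM as deposited, that is, reads scaled to the width of the peak and the total of the library, and a difference is the mean of the DOX libraries minus that of the withdrawal libraries. The median difference was 1.33 over all peaks and 2.16 over the called peaks, whose differences ran from 1.44 to 5.17. All 4 DOX libraries were above both withdrawal libraries at 6907 peaks (47.4%), among them 3121 of the called. In these bulk libraries, fewer cells with Esrrb at a site and less Esrrb per cell cannot be told apart. The lowest DOX library was at least 1 log2 unit above the highest withdrawal library at 1543 peaks (10.6%).

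The count of called peaks moved widely with the libraries included and with the scale of the heights. Without withdrawal replicate 1 no peak was called by limma (1304 at an unadjusted p under 0.05), and without withdrawal replicate 2, 7109 were; in both fits the lone withdrawal library is assumed to vary like the libraries of the other groups. Without DOX replicates 1, 2, 3 and 4 the counts were 2757, 1347, 2020 and 904, and with EKOiE libraries alone 655. On reads recovered from the heights, edgeR's quasi-likelihood test called 0 peaks (3220 at an unadjusted p under 0.05) and limma's voom, which weights by depth, 1. After each library was centred on its own median, 6 peaks were called higher and 0 lower, and after quantile normalization, which gives all libraries the same set of heights, 453 (3.11%) were called higher and 157 lower. The median difference over all peaks was then -0.059 after centring and -0.046 after quantile normalization, so a call on these scales is relative to the other peaks.

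**Figure D1:**
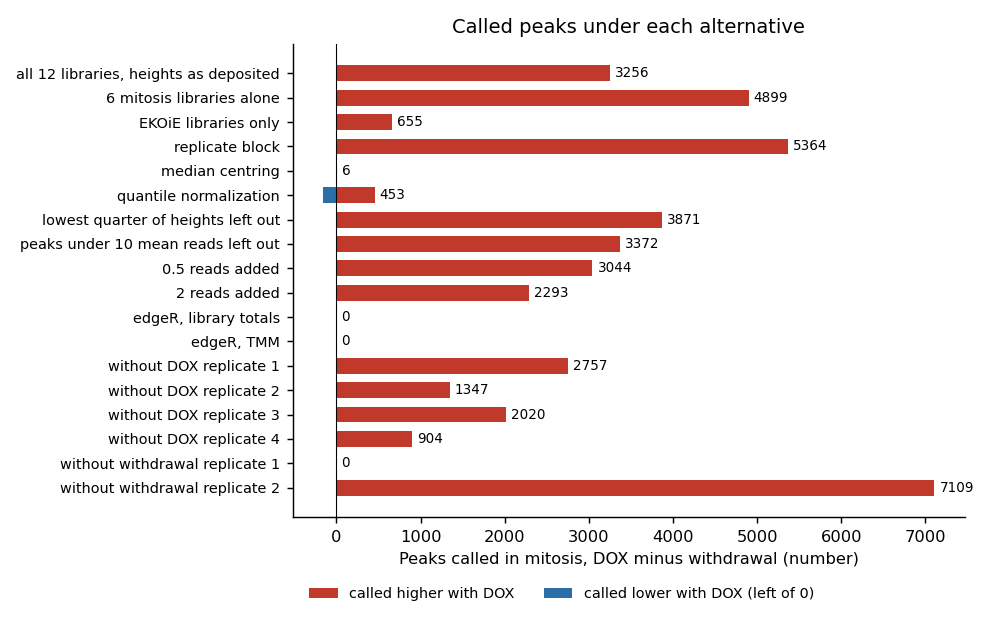
Number of peaks called in mitosis (horizontal axis) with the heights as deposited and under each other setting (rows); red bars to the right are peaks higher with DOX and the blue bar to the left is peaks lower with DOX. The count is 3256 with all libraries, 0 without withdrawal replicate 1 and 7109 without withdrawal replicate 2.

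The authors sort the peaks into classes 1 to 3, together named Bookmarked (1980 peaks), and classes 4 and 5, named Lost (12579 peaks); their definition is not stated in the labels, and since they may rest on the mitosis libraries, the class counts are a description. Called higher were 360 of 450 peaks in class 1 (80.0%), 1100 of 1216 in class 2 (90.5%), 168 of 314 in class 3 (53.5%), 1619 of 6621 in class 4 (24.5%) and 9 of 5958 in class 5 (0.151%), against 22.4% of all peaks. The called peaks thus held 1628 Bookmarked and 1628 Lost peaks. After quantile normalization the counts were 13, 317, 50, 73 and 0 for classes 1 to 5, and 145 of the 157 peaks called lower were in class 5. As shares of each class these were 2.89, 26.1, 15.9, 1.10 and 0%, against 3.11% of all peaks. On that scale the share of class 1 was thus slightly below that of all peaks.

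Class 2 had median heights of 0.52, 0.52, 0.17 and 0.64 in DOX libraries 1 to 4 and -2.48 and -1.09 in withdrawal libraries 1 and 2. Class 1 had 0.86, 0.41, 0.07 and 0.70 with DOX and -1.70 and -1.04 after withdrawal. Class 3 had 0.39, 0.29, 0.10 and 0.46 with DOX and -1.75 and -1.09 after withdrawal. In these classes, as in class 4, all DOX medians lay above both withdrawal medians. Class 4 had -0.33, -0.05, -0.22 and -0.02 with DOX and -2.48 and -1.0 after withdrawal. Class 5 had -2.12, -0.84, -0.88 and -1.18 with DOX and -3.63 and -1.25 after withdrawal, so that here DOX replicate 1 lay below withdrawal replicate 2.

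**Figure D2:**
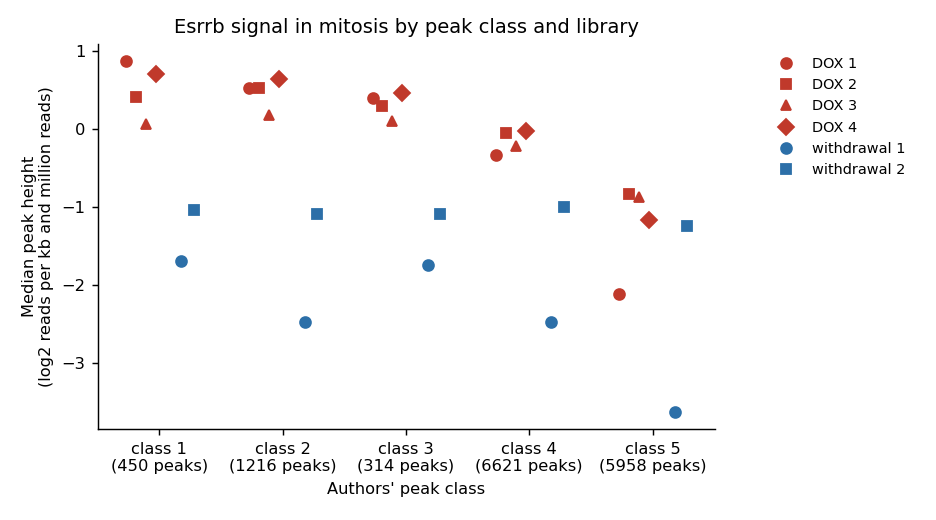
Median height over the peaks of each authors' class (horizontal axis) in each mitosis library (vertical axis, log2 RPKM), DOX in red and withdrawal in blue. The DOX medians lie between 0.07 and 0.86 in class 1 and between -2.12 and -0.84 in class 5, while withdrawal replicate 2 stays between -1.25 and -1.0 in all classes.

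Each withdrawal library gives its own picture. Against withdrawal replicate 1, the mean of the DOX libraries was higher by a median of 2.15, 2.82, 1.92, 2.20 and 1.94 log2 units in classes 1 to 5. Against withdrawal replicate 2, the library with more reads, it was higher by 1.54, 1.52, 1.35 and 0.79 in classes 1 to 4, and the median was -0.01 in class 5. The medians of classes 1 to 4 thus lay above both background libraries, and that of class 5 above the shallow library alone.

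**Figure D3:**
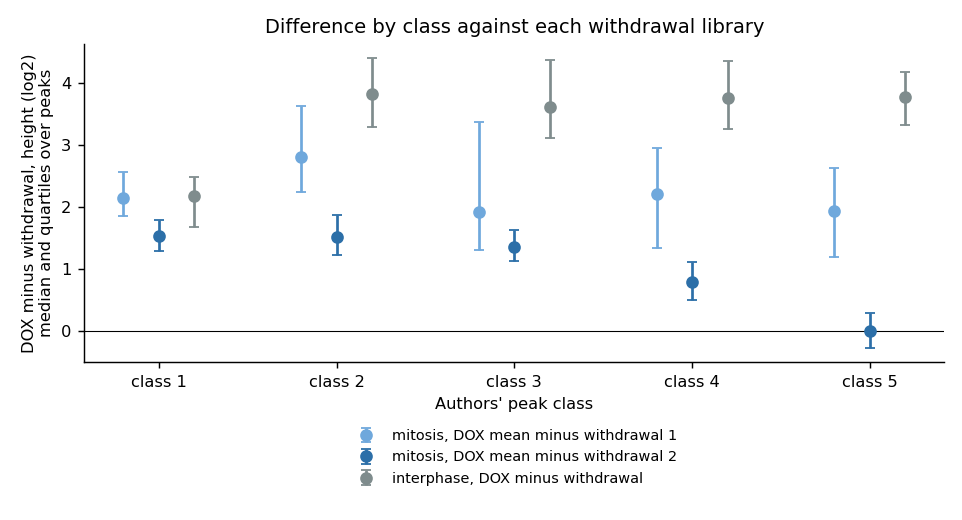
Difference in height with DOX minus withdrawal (vertical axis, log2) by authors' class, as median and quartiles over peaks, for mitosis against each withdrawal library and for interphase. Against withdrawal replicate 2 the medians run from 1.54 in class 1 to -0.01 in class 5. In interphase class 1 lies at 2.18 and classes 2 to 5 between 3.61 and 3.83.

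Among called peaks whose DOX libraries all lay above both withdrawal libraries and that had a gene start within 50 kb, the 10 with the largest differences were those near Capn2, Pdgfa, Got1, Lace1, Sec14l1, Aldoa, Stag3, Tcf15, Zfhx2 and Zfp750. Their differences ran from 3.81 to 5.17 log2 units (SE 0.67 to 0.87; limma adjusted p 0.000636 to 0.00690). The Stag3 peak was in class 4 and the other 9 in class 2. Withdrawal replicate 1 had no read at 5 of the 10, where its height is set by the authors' value of 0.9 read, and the size of these differences depends on it. All 10 were also called higher after quantile normalization, with differences of 2.39 to 3.24, against 13.9% of the called peaks and 3.11% of all peaks. They were picked for large differences in these same libraries, so this is no separate support. After median centring, of the 10 only the peaks near Capn2 and Got1 were called.

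The peak near Capn2, which encodes a subunit of a calcium-dependent protease, lies in the gene 16.2 kb past its start (chr1:184430701-184432050). Its heights were 2.11, 2.92, 2.40 and 2.21 with DOX and -4.65 and -0.87 after withdrawal, from 319, 689, 354 and 212 reads and from 1 and 42 reads. DOX and withdrawal were far apart, and the difference was 5.17 ± 0.79 (SE; limma adjusted p = 0.00146). The peak 20.2 kb past the start of Pdgfa, a platelet-derived growth factor chain (chr5:139449901-139451550), had 3.10, 2.87, 2.38 and 3.28 with DOX and -3.35 and -0.64 after withdrawal. It was the highest of class 2 with DOX, and its difference was 4.90 ± 0.69 (SE; limma adjusted p = 0.000636). At Got1, an aspartate aminotransferase, the peak lay 0.695 kb past the start (chr19:43597801-43599000), with 1.01, 1.55, 0.84 and 0.96 with DOX and -4.63 and -1.50 after withdrawal. At Aldoa, an aldolase of glycolysis, the peak lay 2.0 kb past the start (chr7:133941451-133942500), with 0.71, 1.77, 1.34 and 1.75 with DOX and -4.44 and -0.90 after withdrawal. All DOX libraries were above both withdrawal libraries at each of these, which was a condition for choosing them.

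**Figure D4:**
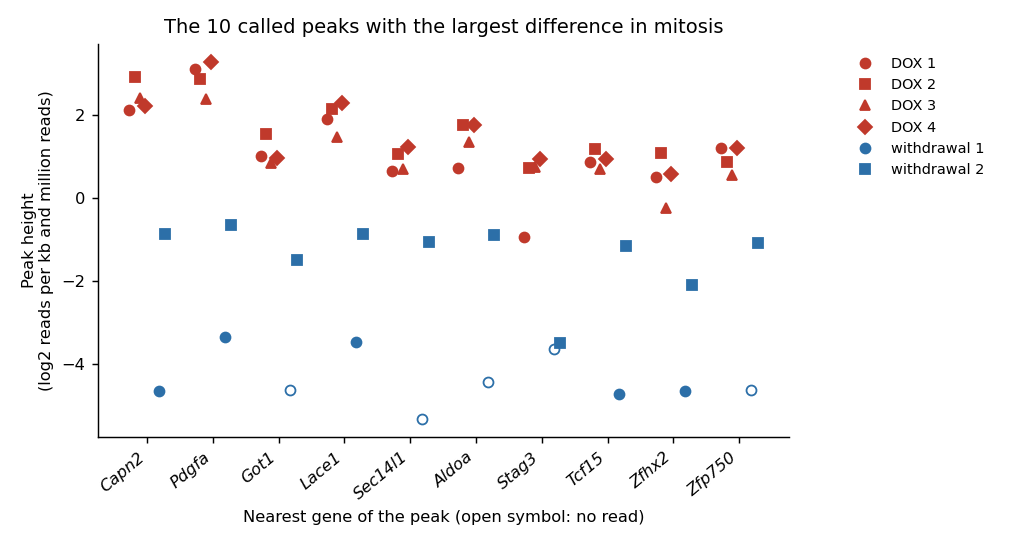
Height (vertical axis, log2 RPKM) in each mitosis library at the 10 peaks with the largest differences (horizontal axis, by nearest gene), DOX in red and withdrawal in blue; an open symbol marks a library with no read. All 4 DOX libraries lie above both withdrawal libraries at every peak, which was a condition for choosing these peaks.

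Other peaks were singled out after their values were seen. The 6 that were called even after median centring lay near Capn2, Kdr, Wdfy3, Ntrk2, Got1 and Pmvk. The peak 333.0 kb past the start of Ntrk2, a neurotrophin receptor (chr13:59239801-59242050), had the widest gap of all between the lowest DOX and the highest withdrawal library. Its heights were 2.54, 2.21, 1.44 and 2.71 with DOX and -3.06 and -1.91 after withdrawal, a difference of 4.71 ± 0.61 (SE; limma adjusted p = 0.000274). The peak 1.0 kb past the start of Slc25a5, an ADP/ATP carrier of the mitochondrial membrane (chrX:34336351-34336950), had few reads in both withdrawal libraries, with 34, 52, 36 and 34 reads with DOX and 1 and 4 after withdrawal. A like pattern stood 0.8 kb before the start of Mpnd (chr17:56147551-56148000), with 28, 31, 21 and 17 reads with DOX and 0 and 3 after withdrawal.

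The highest peak with DOX in each of the other classes is described next, as a single peak that need not stand for its class. In class 1 it was the peak 106.9 kb before Esp38 (chr17:39979951-39981150), with 0.92, 2.72, 3.04 and 1.81 with DOX and -2.16 and 0.94 after withdrawal. DOX replicate 1 lay below withdrawal replicate 2 there, although the peak was called (2.73 ± 0.96, SE; limma adjusted p = 0.0431). In class 3 it was a peak 19.5 kb past the start of Pak4, a kinase of the cytoskeleton, with 0.97, 1.15, 0.80 and 1.08 with DOX and -1.89 and -1.0 after withdrawal, a difference of 2.45 ± 0.57 (SE; limma adjusted p = 0.00867). The peaks near Prpf18 in class 4 and Map2k6 in class 5 had differences of 1.48 and 0.49 and were not called (limma adjusted p = 0.0574 and 0.506). Near Prpf18 the heights were 0.99, 0.78, 0.38 and 1.02 with DOX and -0.74 and -0.63 after withdrawal. Near Map2k6 they were -0.29, -0.45, -0.35 and 0.02 with DOX and -0.96 and -0.54 after withdrawal. DOX and withdrawal did not overlap at either peak, by a gap of 0.09 near Map2k6. Both were picked for their height with DOX. No overlap was found at 65.8% of class 4 peaks, 10.0% of class 5 peaks and 47.4% of all peaks.

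Called peaks were more frequent where Esrrb signal in interphase was high. When peaks were split into 4 equal groups by mean interphase height with DOX, from the lowest to the highest, 6.51, 14.1, 26.3 and 42.5% of peaks were called in mitosis. Against withdrawal replicate 2, the median difference in mitosis over these groups was 0.06, 0.28, 0.72 and 0.97. Within the highest group, 615 of 639 peaks in class 2 were called, 90 of 163 in class 3 and 841 of 2760 in class 4. The median width was 900 bp for called and for uncalled peaks.

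The share called also varied with distance to the nearest gene start. It was 26.9% of 449 peaks within 500 bp, 31.8% of 714 from 500 bp to 1 kb, 29.5% of 698 from 1 to 2 kb, 23.0% of 2980 from 2 to 10 kb, 22.3% of 5599 from 10 to 50 kb and 18.6% of 4119 beyond 50 kb, against 22.4% of all. After quantile normalization the share within 500 bp was 2.23%, below the 3.11% of all peaks, and that from 500 bp to 1 kb 5.74%, above it. Of the called peaks, 10.7% lay within 1 kb of a start, against 7.21% of the uncalled. Away from starts, 20.1% of 6114 peaks inside genes and 23.1% of 7282 peaks between genes were called. Peaks within 1 kb had a median height with DOX of -0.29 and after withdrawal of -2.20, while those beyond 1 kb had -0.48 with DOX and -1.94 after withdrawal.

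Gene groups of ES cells were read through the peaks within 50 kb for which theirs was the nearest start. Over all genes, 23.8% of such peaks were called. The peak described for a gene is the one with the highest mean height over all 12 ChIP-seq libraries, interphase included, and is called its representative peak; it need not be the highest in mitosis. In the naive pluripotency group, 21 of 22 genes had a peak and 27 of 75 peaks were called (36.0%), near 16 genes; 36.1% were called in the LIF and STAT3 group (13 of 36 peaks, near 8 of 9 genes with a peak). The median difference was 1.59 in the naive group and 1.61 in the LIF and STAT3 group, against 1.40 over all peaks within 50 kb. In core pluripotency, which shares Nanog and Sox2 with the naive group, 11 of 40 peaks were called (27.5%, median difference 1.31), and in the formative and primed group 3 of 23 (13.0%, median difference 1.46). The core pluripotency share was near that over all genes. The formative and primed count is small. DOX and withdrawal did not overlap at 60.9% of its peaks, against 61.3% in the naive group and 48.3% of all peaks within 50 kb. Under quantile normalization, where 3.11% of all peaks were called, few calls stayed. They were at Dppa3, Jam2 and Zfp42 of 21 naive genes with a peak, and at Bcl3, Icam1, Pim1 and Socs3 of 9 LIF and STAT3 genes. Calls also stayed at Esrra of 9 energy genes, Bub1 of 6 G2/M genes and Tfap2c of 12 genes of other lineages. None stayed at the 11 core and 7 formative genes with a peak. Whether the groups differ on this scale was not tested.

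In the naive group, the representative peak of Zfp42, a zinc finger marker of ES cells known as Rex1, lies 14 kb before its start (chr8:44405851-44406900). Its heights were 1.55, 0.70, 0.70 and 1.39 with DOX and -2.70 and -1.14 after withdrawal, a difference of 3.01 ± 0.60 (SE; limma adjusted p = 0.00467). The peaks at Dppa3, a maternal factor that guards DNA methylation, Tcl1, a cofactor of Akt, and Tbx3, a T-box factor, had differences of 2.71, 2.61 and 2.57 and were called (limma adjusted p = 0.0170, 0.0220 and 0.0124). At all 4 genes DOX and withdrawal did not overlap. They were named for the largest differences among the representative peaks of the group. No overlap was found at 61.3% of all peaks of the naive group and at 48.3% of all peaks within 50 kb. The representative peak of Klf5, a zinc finger factor of the naive network, had heights of 0.94, -0.25, 0.02 and 0.22 with DOX and -0.06 and -0.72 after withdrawal. These overlapped, with a difference of 0.63 ± 0.52 (SE; limma adjusted p = 0.342), although another peak near Klf5, of slightly greater mean height in mitosis with DOX, was called (2.10, limma adjusted p = 0.0293).

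The peak 3.4 kb before Pou5f1, the Oct4 gene (chr17:35639251-35640000), had 0.20, -0.24, 0.39 and 0.42 with DOX and -2.22 and -1.16 after withdrawal, a difference of 1.88 ± 0.55 (SE; limma adjusted p = 0.0218). The peak 4.2 kb before Nanog (chr6:122652601-122654100) had 0.14, -0.19, -0.03 and 0.03 with DOX and -2.48 and -0.80 after withdrawal. Its DOX and withdrawal libraries did not overlap, as at 57.5% of the peaks of the core group. The difference of 1.63 ± 0.64 (SE, limma adjusted p = 0.0633) was not called, while another peak near Nanog was. Sall4, a zinc finger partner of Pou5f1, had a called peak 12.5 kb before its start (2.29 ± 0.57, SE; limma adjusted p = 0.0119), while the peaks of Lin28a, an RNA-binding protein, and Tcf7l1, a repressor of the Wnt pathway, had differences of 1.77 and 0.33 and were not called (limma adjusted p = 0.178 and 0.636).

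Targets of LIF and STAT3 included Icam1, an adhesion molecule, whose peak lies 0.9 kb before the start (chr9:20819101-20819850). Its heights were -0.36, 1.43, 0.45 and 0.50 with DOX and -3.80 and -1.60 after withdrawal, a difference of 3.21 ± 0.72 (SE; limma adjusted p = 0.00764). Here the wild-type library, DOX replicate 2, was the highest. The peaks of Pim3, a kinase, and Mras, a Ras-like GTPase, were called with differences of 2.68 and 2.45 (limma adjusted p = 0.0160 and 0.0251), and those of Cish, an inhibitor of cytokine signalling, and Lifr, the LIF receptor, were not, with 2.21 and 1.38 (limma adjusted p = 0.0918 and 0.0662); another peak near Lifr was.

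Genes of energy metabolism known as targets of ERR receptors had 6 of 19 peaks called (31.6%), near 4 of 9 genes with a peak. The peak 0.8 kb before the start of Esrra, a related receptor (chr19:6996451-6997800), had -0.50, 1.00, 0.66 and 0.75 with DOX and -4.80 and -1.17 after withdrawal, the first of these without a read, a difference of 3.46 ± 0.83 (SE; limma adjusted p = 0.00984). The peaks at Idh3a, a subunit of isocitrate dehydrogenase, and Fabp3, a fatty acid binding protein, were called with 2.21 and 1.78 (limma adjusted p = 0.0154 and 0.0379). Those at Sdhb, a subunit of succinate dehydrogenase, and Pdk4, a kinase that holds back pyruvate dehydrogenase, were not, with 2.83 and 0.70 (limma adjusted p = 0.0578 and 0.331).

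Regulators of G2/M and mitosis had 5 of 10 peaks called, near Aurkb, Bub1, Cdc20, Cdk1 and Kif11, a count too small to set against the 23.8% of all genes. The peak 7.9 kb before Bub1, a kinase of the spindle checkpoint (chr2:127665001-127666050), had 1.02, 0.70, -0.06 and 0.89 with DOX and -4.29 and -1.37 after withdrawal, a difference of 3.47 ± 0.66 (SE; limma adjusted p = 0.00380). The representative peaks of Cdk1, the mitotic kinase, Cdc20, an activator of the anaphase-promoting complex, and Kif11, a spindle motor, were called with 2.42, 2.34 and 2.27 (limma adjusted p = 0.0250, 0.0260 and 0.0101), and that of Aurkb, a kinase of the chromosomal passenger complex, was not (1.37, limma adjusted p = 0.0979). The called Aurkb peak had greater mean height than this one in mitosis with DOX (1.97, limma adjusted p = 0.0363).

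Genes of other lineages had 8 of 26 peaks called (30.8%), near Eomes, Gata6, Pdgfra and Tfap2c. Their representative peaks had differences of 2.16, 2.20, 2.39 and 2.12 (limma adjusted p = 0.0330, 0.0343, 0.0186 and 0.0342). These were named for the largest differences, and DOX lay above both withdrawal libraries at each. The same held at 53.8% of the 26 peaks. Another Tfap2c peak had greater mean height in mitosis with DOX than the representative one, and a difference of 3.41 (limma adjusted p = 0.00847). The peak in Nes, an intermediate filament of neural progenitors, had 3, 28, 20 and 3 reads with DOX and 0 and 12 after withdrawal, and was not called (0.74 ± 0.82, SE; limma adjusted p = 0.460). In the formative and primed group, the Otx2 and Zic5 peaks were called (2.37 and 1.78; limma adjusted p = 0.00987 and 0.0355). Those of Dnmt3b, Pou3f1 and Lef1 were not, with 1.75, 1.61 and -0.08 (limma adjusted p = 0.109, 0.0989 and 0.908).

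In interphase the same comparison was larger. There 14500 of 14559 peaks (99.6%) were called higher with DOX, with a median difference of 3.74, against 1.33 in mitosis. Median differences in interphase ran from 3.61 to 3.83 in classes 2 to 5, against 2.18 in class 1. In class 1, 395 of 450 peaks were called higher in interphase. The difference in mitosis minus that in interphase was called lower at 5459 peaks (37.5%) and higher at 1 (limma adjusted p under 0.05). By class, 0 of 450 peaks in class 1, 270 of 1216 in class 2, 122 of 314 in class 3, 3145 of 6621 in class 4 and 1922 of 5958 in class 5 were lower. Median differences of mitosis minus interphase were -0.19 in class 1 and -2.80 in class 5.
The count of 5459 was 0 with EKOiE libraries alone (6483 at an unadjusted p under 0.05) and 0 after median centring. It was 12140 without withdrawal replicate 1 of mitosis and 81 without replicate 2, and 2995, 3802, 2744 and 2939 without DOX replicates 1, 2, 3 and 4 of mitosis. The peak that was higher in mitosis, found after values were seen, lies 30.7 kb before Dph6 (chr2:114511051-114511650) in class 1. Its heights in mitosis were 2.12, 0.85, 0.75 and 1.30 with DOX and -0.89 and -1.77 after withdrawal, a difference of 2.58 ± 0.75 (SE). In interphase they were 0.29, 0.91, 0.13 and -2.83 with DOX and 0.09 and -0.51 after withdrawal, a difference of -0.17 ± 0.75 (SE), and the gap between the states was 2.75 ± 1.06 (SE; limma adjusted p = 0.0454). The interphase groups overlapped, and DOX replicate 4, at -2.83, had no read.

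RNA-seq gave a readout that the heights did not use. It covers G1 and G2 and 24 h of withdrawal, not mitosis and 48 h. Esrrb itself stood at 278 CPM with DOX and 173 after withdrawal, a difference of 0.68 ± 0.08 log2 (SE, averaged over the 3 phases; edgeR adjusted p = 3.75e-05); reads of the transgene and of the Esrrb locus are not told apart. Of 14092 genes tested, 1194 (8.47%) were higher with DOX and 1188 (8.43%) lower. A gene counts as beside a peak if its start is the nearest to the peak and lies within 50 kb. Among 1852 genes beside a called peak, 239 were higher (12.9%) and 193 lower (10.4%). Among 3350 genes beside peaks of which none was called, 389 were higher (11.6%) and 291 lower (8.69%). Among 8890 genes that were not the nearest to any peak within 50 kb, the counts were 566 (6.37%) and 704 (7.92%).
Genes beside called Bookmarked peaks were higher in 12.2% and lower in 10.7% of 998 cases, and those beside called Lost peaks alone higher in 13.7% and lower in 10.1% of 854. With the replicate number as a block, 438 genes beside a called peak were higher and 382 lower. Without RNA-seq replicate 2 the counts were 75 and 58, and without replicate 3 they were 105 and 104.

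Of the 10 genes beside a called peak with the largest RNA changes, 9 were higher with DOX and 1 lower. Over all 1852 genes beside a called peak, 239 were higher and 193 lower. The 10 included Slc6a12, Klk1, Ssu2, Fabp3, Bhmt, Ly6g6e, Mfi2 and Gata6, all higher, and Slc6a5, which was lower. Several had few counts. Slc6a12 averaged 0.594 CPM with DOX and 0.106 after withdrawal, and Mfi2 0.737 and 0.254. Bhmt averaged 1.02 and 0.341 CPM, and Ssu2 1.37 and 0.362. Fabp3 had 36.4, 66.7 and 108 CPM as lowest, median and highest of 9 libraries with DOX and 10.1, 19.7 and 28.8 after withdrawal. The groups did not overlap, and the difference was 1.82 ± 0.22 log2 (SE; edgeR adjusted p = 6.56e-05). Its called peak with the largest difference in mitosis lay 13.4 kb past its start and had -0.41, 0.30, 0.47 and 0.74 with DOX and -4.06 and -0.54 after withdrawal. Ly6g6e, a protein of the Ly6 family, had 17.1, 22.0 and 25.9 CPM as lowest, median and highest with DOX and 5.90, 7.22 and 8.53 after withdrawal. It did not overlap either, and the difference was 1.59 ± 0.10 log2 (SE; edgeR adjusted p = 5.04e-08). Its called peak lies 336 bases before its start, with 0.31, 0.50, 0.01 and 0.65 with DOX and -2.48 and -1.67 after withdrawal. Gata6, a factor of primitive endoderm, averaged 1.5 ± 0.405 CPM with DOX and 0.577 ± 0.286 after withdrawal (SD over 9 libraries each), with a difference of 1.38 ± 0.24 log2 (SE; edgeR adjusted p = 0.000970). Slc6a5 averaged 0.151 ± 0.0971 CPM with DOX and 0.376 ± 0.212 after withdrawal (SD over 9 libraries each), with a difference of -1.38 ± 0.44 log2 (SE; edgeR adjusted p = 0.0394). Large changes in mitotic signal were not always beside large RNA changes: at Pdgfa, Got1 and Aldoa the RNA differences were 0.10, 0.10 and -0.14 and did not pass (edgeR adjusted p = 0.707, 0.524 and 0.538). Aldoa passed, as lower with DOX, once replicates were paired by number (edgeR adjusted p = 0.0131). Pdgfa and Got1 still failed the test then (0.314 and 0.357). Capn2, Lace1 and Tcf15, also near the 10 largest peaks, passed in that paired fit (edgeR adjusted p = 0.0402, 0.0136 and 0.0404). These were higher with DOX in the main fit but did not pass there. Sec14l1, Stag3, Zfhx2 and Zfp750 passed in neither fit.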

How the data were processed

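Esrrb ChIP-seq heights and RNA-seq counts were taken as deposited. The authors deposited a table of peak heights whose values are log2 RPKM (reads scaled to peak width and library total), read from the values themselves; all heights gave whole reads (tolerance 0.05), an empty peak standing at 0.9 read. Columns headed "noco", a word the labels do not use, were matched to the mitosis libraries by number. The authors deposited exonic counts for 20300 genes and intronic counts for 17916 genes; 27 symbols turned into dates were restored through RefSeq. The submitters' processing notes name CASAVA 1.8, Bowtie, DESeq2 and mm9, without their order. Peaks were given the nearest gene start of the exonic table within 50 kb.

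Heights were compared with limma 3.58.1 (trend, 4 group means, all 12 ChIP-seq libraries, Benjamini-Hochberg over all peaks), and counts with edgeR 4.0.16 (quasi-likelihood, TMM, filterByExpr, 18 libraries, DOX minus withdrawal averaged over the phases), in R 4.3.3; DESeq2 1.42.0 was an alternative. On simulated reads with these depths, limma on heights let through more false calls than its nominal 5%, so edgeR and limma's voom were run beside it. Exonic totals were 11.1 to 31.8 M counts. RNA-seq libraries of the same replicate number deviated together (r 0.18 to 0.57 in 9 pairs). The main edgeR fit, which gave the reported counts and adjusted p-values, left this pairing out. A fit with the replicate number as a block was run beside it and is named where its values are given.

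Named peaks were the 10 largest called differences within 50 kb of a start with every DOX library above both withdrawal libraries, the peak of each list gene with the highest mean over the 12 libraries (up to 4 largest and the smallest difference per list), the highest peak per class, the 10 largest RNA changes beside a called peak, and up to 6 called promoter peaks. The members, lists and rules were chosen with earlier results of these data known. Peak sequences were not analysed here. One of the 10 genes with the largest RNA changes is not reported here.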

Additional observations from a re-analysis of the deposited data

Results flagged for a closer look

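DOX replicate 1 had a median height over all peaks in mitosis of -0.95, apart from the other 3 DOX libraries. At 3 of 62 peaks tested a single DOX library stood apart in the same way, which chance gives in about 1 in 20 groups: DOX replicate 1 at -1.59 near Sdhb and at -0.95 near Stag3, and DOX replicate 4 at -0.35 near Aurkb.

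The DOX minus withdrawal difference was larger in mitosis than in interphase at the peak near Dph6, by 2.75 log2 units (limma adjusted p under 0.05, as for all that follow). It was smaller in mitosis at 20 of the 62 named peaks, no larger a share than the 37.5% of all peaks, given as mitosis minus interphase. Pluripotency and LIF genes had -3.58 at Icam1, -3.16 at Mras, -3.18 at Dppa3, -2.37 at Nanog, -2.20 at Klf5 and -3.33 at Tcf7l1. Formative and lineage genes had -2.01 at Otx2, -3.04 at Pou3f1, -2.76 at Lef1, -3.29 at Tfap2c, -2.84 at Gata6 and -5.28 at Nes. Metabolic genes had -3.11 at Fabp3 and -2.98 at Pdk4. Promoter peaks had -2.57 at Zmynd12, -2.90 at Cerk and -2.94 at Arsa. The peaks near Pak4, Mpnd and Map2k6 had -3.01, -2.97 and -2.72. After median centring none of these differences between the states was called.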

How the results depend on the processing

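Alternatives with voom, with 2 settings combined, or with quantile normalization of fewer libraries were chosen after seeing the data. The 3256 peaks called higher in mitosis (0 lower) became 4899 with the 6 mitosis libraries alone, 655 with EKOiE libraries, 6 after median centring, 453 (157 lower) after quantile normalization, 0 with edgeR under either scaling, 1 with voom and 0 to 7109 when single libraries were left out (a lone withdrawal library being assumed to vary like the other groups). With quantile normalization they became 67 (1 lower) for EKOiE libraries, 606 (250 lower) without withdrawal replicate 1 and 457 (126 lower) without withdrawal replicate 2. The 14500 in interphase became 404 (79 lower) after centring, 327 (145 lower) after quantile normalization, 0 with edgeR's TMM, and under the last 3 settings 116 (53 lower), 503 (208 lower) and 490 (204 lower). For mitosis minus interphase, 5459 lower and 1 higher became 0 and 0 with EKOiE libraries, centring, TMM, voom and EKOiE quantile normalization, 1 lower and 45 higher after quantile normalization, 103 lower and 322 higher, then 2 lower and 70 higher, under the last 2 settings, and 11102 lower with 2 reads added; leaving out single libraries gave 81 to 12140 lower and 0 to 1 higher, and 0.5 reads added and edgeR with library totals gave 0 higher.

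Same-numbered DOX and withdrawal libraries in mitosis share only numbers 1 and 2 (r 0.50 and 0.43), and number 2 is another line in each group, so these numbers do not pair the ChIP-seq. With the replicate block 5364 peaks were higher in mitosis, and 12431 were lower and 11 higher in mitosis minus interphase; the block with median centring gave 4 in mitosis, 357 (69 lower) in interphase and 0 between states. In the RNA-seq, the replicate block gave 2530 genes higher and 2538 lower over all genes, and 438 and 382 beside a called peak. Introns gave 228 and 275 over all and 61 and 31 beside a called peak. Leaving out single replicates gave 214 to 996 higher and 287 to 1032 lower over all. Beside a called peak these were 75 to 235 and 58 to 160. Starts within 10 kb gave 136 (12.8%) and 107 (10.1%) beside a called peak. Beside peaks of which none was called, the shares at that distance were 13.2 and 8.36%.

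The median difference in mitosis turned to -0.059 after centring, -0.046 after quantile normalization, -0.076 with block and centring, -0.047 with EKOiE quantile normalization and -0.076 with quantile normalization without withdrawal replicate 1. Named peaks that turned sign were, after centring, Lifr (-0.011), Nes (-0.65), Pdk4 (-0.70), Tcf7l1 (-1.06), Aurkb (-0.025), Klf5 (-0.77) and Map2k6 (-0.91). After quantile normalization they were Dnmt3b (-0.12), Nes (-0.68), Pdk4 (-0.76), Tcf7l1 (-0.97), Aurkb (-0.36), Klf5 (-0.73) and Map2k6 (-1.10). With TMM they were Nes (-0.076), Pdk4 (-0.38), Tcf7l1 (-0.41), Klf5 (-0.54), Lin28a (-0.12) and Map2k6 (-0.59). With block and centring they were Nes (-0.92), Pdk4 (-0.63), Tcf7l1 (-0.67), Klf5 (-0.50) and Map2k6 (-0.89). With EKOiE quantile normalization they were Dnmt3b (-0.33), Nes (-1.02), Pdk4 (-0.62), Tcf7l1 (-0.998), Aurkb (-0.33), Klf5 (-0.52) and Map2k6 (-0.99). With quantile normalization without withdrawal replicate 1 they were Esp38 (-0.68), Dnmt3b (-0.96), Tfap2c (-0.65), Nes (-1.37), Pdk4 (-0.84), Tcf7l1 (-0.33), Nanog (-0.28), Aurkb (-0.85), Klf5 (-0.22), Zic5 (-0.30), Lin28a (-0.39) and Map2k6 (-1.17), and without withdrawal replicate 2 Lifr (-0.37), Pdk4 (-0.68), Tcf7l1 (-1.62), Klf5 (-1.25) and Map2k6 (-1.03). When single libraries were left out, Nes ran from -0.33 to 1.8 and Lin28a from -0.047 to 3.58, both lowest without withdrawal replicate 1, and Lef1 from -0.21 to 0.019, the highest without DOX replicate 3. Where no construction of the setting shows it, the cause was not tested. Withdrawal replicate 1, with a median of 2 reads per peak, limits every value that rests on it.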
